A study of Mus musculus with 2 samples.

Results

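The PYHIN family cluster on chromosome 1 is a run of neighbouring genes that encode DNA-binding proteins, and 10 of its genes are described here: Ifi203, Ifi204, Ifi205, Ifi207, Ifi208, Ifi209, Ifi211, Ifi213, Ifi214 and Mndal. The 10 genes were taken by symbol from the deposited tables, in which 26082 genes have a row, and each symbol had a single row in both libraries. They were chosen from their ratios between these same 2 libraries, so their levels and ratios are given as a description, with no test. The study asked what TGFBR3, a co-receptor for TGF-β ligands, does to the adipogenesis of fibro-adipogenic progenitors (FAPs), the stromal progenitors of skeletal muscle that can become fat cells or fibroblasts. RNA was sequenced from primary wild-type FAPs that had been given either plasmids overexpressing TGFBR3 or the vector as control, with 1 library in each group. Both groups were under adipogenic differentiation, in medium with 20% FBS, 10 μg/ml insulin, 0.5 mM IBMX and dexamethasone at 0.25 μM. The study worked with C57BL/6 mice bought at 6 to 8 weeks of age and sorted FAPs from digested hind limb muscle. The number of mice behind each library, the promoter and species of the TGFBR3 insert and the time of RNA collection are not given in the sources used here.

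The libraries held 62321027 deposited counts under the label TGFBR3 overexpression and 83779203 under vector control. The row of mouse Tgfbr3 had 36.87 and 35.13 FPKM in that order, so the groups are named by their labels throughout. Whether reads of the plasmid's insert would be counted in that row is not given in the sources used here. The paper also lists a real-time PCR of TGFBR3 in FAPs transfected with the plasmids or vectors, without values in its text. Whether these were the sequenced cultures is not stated. FPKM is the count of a gene scaled by its length and by a library total. FAP markers were present in both libraries, with Pdgfra at 30.48 and 32.6 FPKM Ly6a at 1012.73 and 706.37 FPKM, Cd34 at 20.62 and 25.68 FPKM and Col1a1 at 467.46 and 869.95 FPKM. Lum, a matrix gene of stromal cells, had 45 and 8 counts. As there was 1 library per group, no spread between cultures can be given. Intervals are exact at the 95% level, by Clopper-Pearson for ratios and shares of counts and by Poisson for single levels. They cover counting error only, and they compare the 2 libraries, not the conditions.

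PYHIN proteins typically join a pyrin domain, through which proteins of this fold bind each other, to 1 or more HIN domains, which bind DNA. They are known from innate immunity as sensors of DNA: AIM2 assembles an inflammasome, and IFI204, also called p204, is a mouse relative of human IFI16 that acts with STING. Many of the mouse genes are induced by interferons, and IFI204 is also known as a binding partner of the retinoblastoma protein in differentiating cells. The cluster differs in content between mouse strains and consists of copies that resemble each other.

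The members lay within 512 kb, at chr1:173519717-174031810 in mm10. In order of position they run Ifi214, Ifi213, Ifi209, Ifi208, Ifi207, Ifi204, Mndal, Ifi211, Ifi203 and Ifi205. Ifi209 and Ifi208 lie on the plus strand and the other 8 on the minus strand. All 10 are annotated as protein coding. Ifi211 has the shortest summed exon length, 1785 bases, and Ifi214 the longest, 8107 bases, although the longest coding sequence of Ifi214 is only 657 bases. Ifi207 has the longest coding sequence, 2934 bases. The annotated span of Mndal encloses Ifi211, with which it shares 0 exon bases, and runs into Ifi203, with which it shares 37 exon bases on the same strand.

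Promoter sequences of the members are shown before the values. The RefSeq promoter table, on build GRCm38.p6, runs from 250 bases before to 50 bases after a gene's start and holds 9 of the 10 members, with no entry for Ifi204. The core of the interferon-stimulated response element (ISRE), to which IRF proteins and their complexes are known to bind, was searched on both strands as TTTC, any 2 bases, TTTC. It was found in 8 of the 9 members. Of 27025 genes with a promoter in the table, 3.99% hold it. Several of the members' promoters are near copies, such as Ifi208 and Ifi213 with 98.9% identity, so the 8 are not independent matches. The stretches around the core are written 5′ to 3′ on the strand of the gene, with the core in capitals:
Ifi214 (chr1:173536007-173536056, minus strand): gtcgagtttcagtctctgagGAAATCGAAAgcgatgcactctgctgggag
Ifi213 (chr1:173599316-173599365, minus strand): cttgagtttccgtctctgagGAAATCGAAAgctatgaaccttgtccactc
Ifi209 (chr1:173630760-173630809, plus strand): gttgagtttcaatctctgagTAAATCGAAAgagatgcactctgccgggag
Ifi208 (chr1:173673587-173673636, plus strand): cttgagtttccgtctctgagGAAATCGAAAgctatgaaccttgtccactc
Ifi207 (chr1:173741821-173741870, minus strand): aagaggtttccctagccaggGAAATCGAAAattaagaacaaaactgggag
Mndal (chr1:173880194-173880243, minus strand): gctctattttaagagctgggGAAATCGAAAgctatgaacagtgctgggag
Ifi211 (chr1:173913054-173913103, minus strand): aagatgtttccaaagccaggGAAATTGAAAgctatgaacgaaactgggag
Ifi203 (chr1:173942498-173942547, minus strand): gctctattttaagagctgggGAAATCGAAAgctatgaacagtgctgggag
Ifi205 (chr1:174031860-174031909, minus strand): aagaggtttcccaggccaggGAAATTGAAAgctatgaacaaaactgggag
In these lines the core stood 35 to 134 bases before the start, counted to its first base. Ifi205 held a further match just after its start, and a second listed promoter of Mndal held another, neither of them shown. A second listed promoter of Ifi203 held no match. The core shown read GAAATTGAAA in Ifi205 and Ifi211 and GAAATCGAAA in the other 6 members. Ifi209 had no match. The capitals in its line mark a near match 79 bases before the start with 1 difference, G1T, with the core's base first and positions counted from 1 at the 5′ end of the core. A near match further upstream in Ifi209, GAAAAGCAAA, differed by G7C. Ifi214 has the promoter most like that of Ifi209, with 96.0% identity over 299 aligned bases, and it holds the full core. The gamma-activated site, TTC, any 3 bases, GAA, which reads alike on both strands and is known from interferon-gamma responses, was in none of the 9 members and in 9.55% of the 27025 genes. A match of letters is a description of the sequence, and the binding of any factor was not measured.

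Every member was higher in the library labelled TGFBR3 overexpression. Summed over the 10 members, the level was 403.34 FPKM there and 68.35 FPKM in the library labelled vector control, and their log2 ratio, taken as (FPKM + 1), was 2.54. In counts, the cluster had 82698 and 17758, which are 1327 and 212 CPM, the counts scaled to the same library total. The share of counts was 6.26-fold higher, with an interval of 6.16 to 6.36. Of the 10 members, 9 had a log2 ratio of (FPKM + 1) of at least 1, which is 2-fold. Among the 21364 genes with more than 3 counts in either library, 1.73% passed the same threshold in that direction, and 0.58% the opposite one. At 1.5-fold the count was also 9 of 10 members, beside 7.89% of all genes, and at 4-fold it was 7, beside 0.36%. Since the members were chosen by this contrast, nothing is read from the difference between these shares. The median log2 ratio was 2.44 over the members and 0.06 over the 21364 genes. In bulk RNA, more cells of a kind that expresses a gene and more RNA per cell cannot be told apart.

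**Figure D1:**
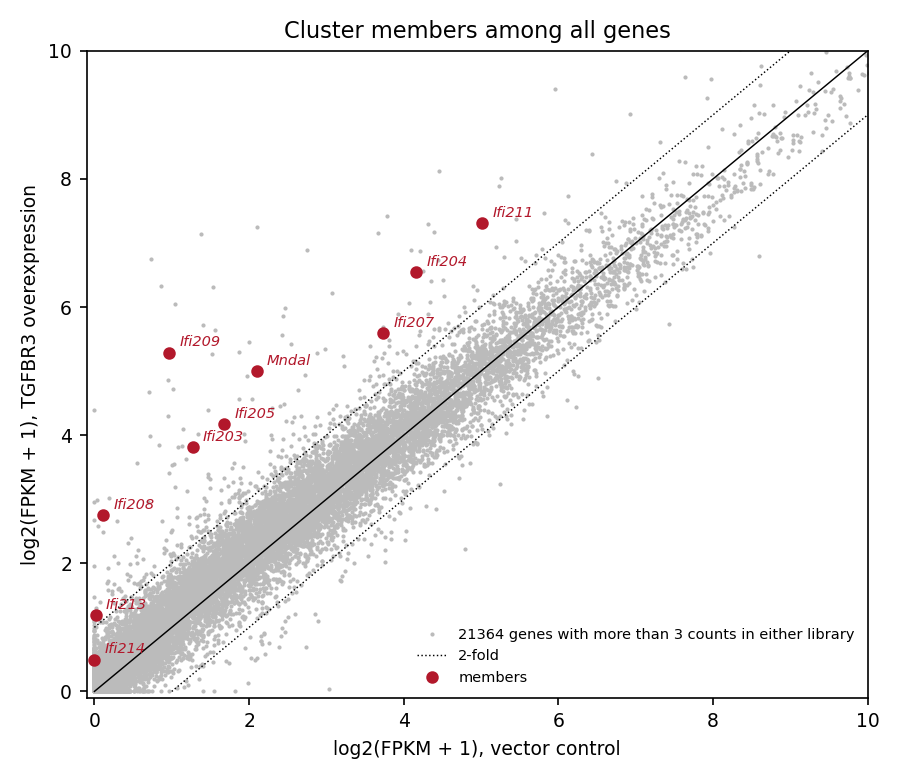
Levels of the 10 members among 21364 genes with more than 3 counts in either library, as log2(FPKM + 1) in the library labelled vector control (horizontal) and TGFBR3 overexpression (vertical). The solid line marks equal levels and the dotted lines 2-fold; 9 members lie above the upper dotted line and Ifi214 below it, and 27 genes past 10 on either axis lie outside the plot.

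The 3 most abundant members were the same in both libraries. Ifi211, a coding gene with 1 annotated transcript, had 157 FPKM in the library labelled TGFBR3 overexpression, with an interval of 155 to 159, against 31.34 FPKM (30.5 to 32.2) under vector control. Its share of counts, from 19012 and 5169 counts, was 4.94-fold higher (4.79 to 5.10). Ifi204, the DNA sensor named above, had 92.46 FPKM and 16.83 FPKM from 22337 and 5539 counts. This is 5.42-fold in the share of counts (5.26 to 5.58) and a log2 ratio of (FPKM + 1) of 2.39. Ifi207, the member with the longest coding sequence, had 47.32 and 12.25 FPKM from 10986 and 3873 counts. Its ratio was the lowest in the cluster by the share of counts, 3.81-fold (3.68 to 3.96). In the library labelled vector control these 3 genes stood at the 92.8th, 87.4th and 83.8th percentile of FPKM among the 21364 genes, so they were well expressed there too.

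Mndal, Ifi205 and Ifi203 formed a middle range. Mndal, named for its likeness to the human myeloid cell nuclear differentiation antigen, had 30.95 FPKM against 3.28 FPKM. That is 9.28-fold in the share of counts (8.70 to 9.89), from 7542 and 1093 counts. Ifi205 had 17.03 and 2.2 FPKM from 4825 and 851 counts, 7.62-fold (7.08 to 8.21). Ifi203 had 13.11 and 1.41 FPKM from 5969 and 876 counts, 9.16-fold (8.53 to 9.84). The interval of Ifi205 lies below those of Mndal and Ifi203, and the intervals of Mndal and Ifi203 overlap.

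The other 4 members were under 1 FPKM in the library labelled vector control. Ifi209, the member without a full ISRE core, had 38.04 FPKM in the library labelled TGFBR3 overexpression and 0.95 FPKM in the other, from 9155 and 312 counts. Its log2 ratio of (FPKM + 1), 4.32, was the highest of the 10 and ranked 9 among the 21364 genes. By the share of counts it was 39.4-fold higher (35.2 to 44.3). Ifi208 had 5.73 and 0.08 FPKM from 2045 and 41 counts, 67.1-fold (49.3 to 93.7). Ifi213 had 1.29 and 0.01 FPKM from 600 and 4 counts. With so few counts in 1 library its ratio of 202-fold has an interval of 78.3 to 742. Ifi214 had 0.41 FPKM from 227 counts and was listed at 0 FPKM with 0 counts in the library labelled vector control. With that count set to 3, the floor used here, its share of counts would be 102-fold higher, and the exact interval begins at 82.1-fold.

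The pseudocount of 1 holds down the log2 ratio of the lowest members. It was 2.64 for Ifi208, 1.18 for Ifi213 and 0.50 for Ifi214, the single member under 2-fold on this scale. Without the pseudocount the log2 ratio of FPKM was 6.16 for Ifi208 and 7.01 for Ifi213. Ifi214 had 6.67 by the share of counts, with its control count set to 3. The call of Ifi213 also ended when a trend was removed, with a log2 ratio of 0.76 after the trend over GC content and 0.98 after that over exon length.

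**Figure D2:**
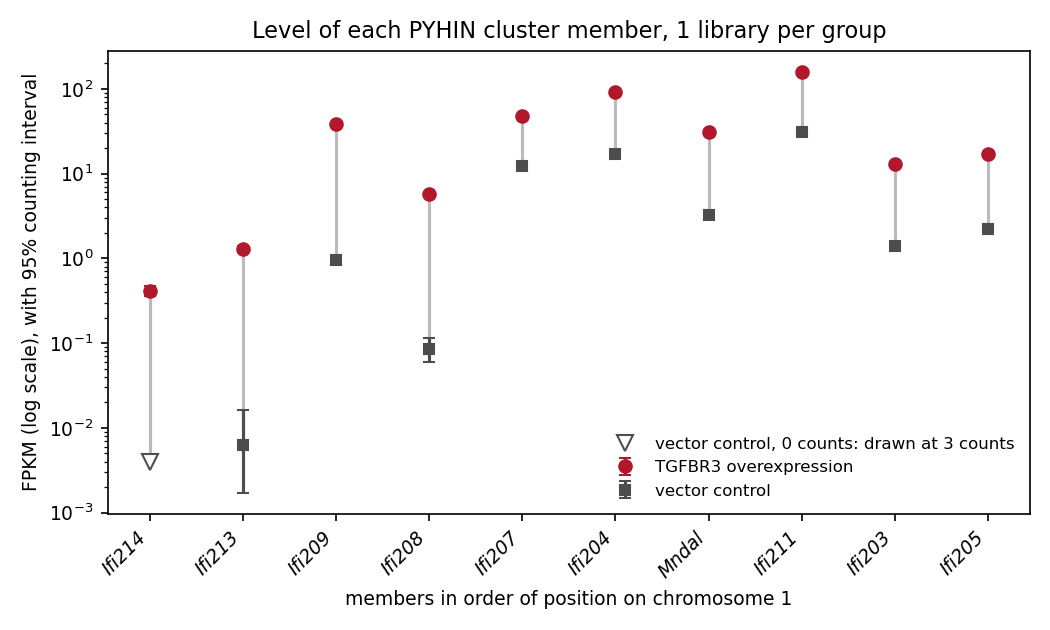
FPKM of each member on a log scale in the library labelled TGFBR3 overexpression (circles) and the library labelled vector control (squares), with exact 95% counting intervals, drawn from the counts and each gene's FPKM per count; most intervals are smaller than the symbols. Ifi214 had 0 control counts and is drawn at 3 counts (triangle). All 10 circles lie above their control value, and the gap is widest in the 4 genes on the left.

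The order of the levels was nearly the same in both libraries. In the library labelled TGFBR3 overexpression it ran Ifi211, Ifi204, Ifi207, Ifi209, Mndal, Ifi205, Ifi203, Ifi208, Ifi213 and Ifi214, and no counting interval overlapped that of the next gene. In the library labelled vector control, Ifi209 stood in place 7, after Ifi203, and the other 9 genes kept their order. There the intervals of Ifi213, 0.0017 to 0.016 FPKM, and Ifi214, up to 0.0049 FPKM, overlapped, and no other neighbours did. The spread between cultures, which these intervals do not hold, is unknown.

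The make-up of the cluster's RNA shifted with these unequal ratios. Ifi209 gave 1.76% of the cluster's counts in the library labelled vector control (1.57% to 1.96%) and 11.1% in the library labelled TGFBR3 overexpression (10.9% to 11.3%). Mndal went from 6.15% to 9.12% and Ifi203 from 4.93% to 7.22%. The 3 most abundant genes gave way: Ifi207 had 21.8% and 13.3%, Ifi211 29.1% and 23.0%, and Ifi204 31.2% and 27.0%, in the same order. By FPKM, which accounts for length, Ifi211 was the main member in both libraries, with 45.9% and 38.9% of the summed level.

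**Figure D3:**
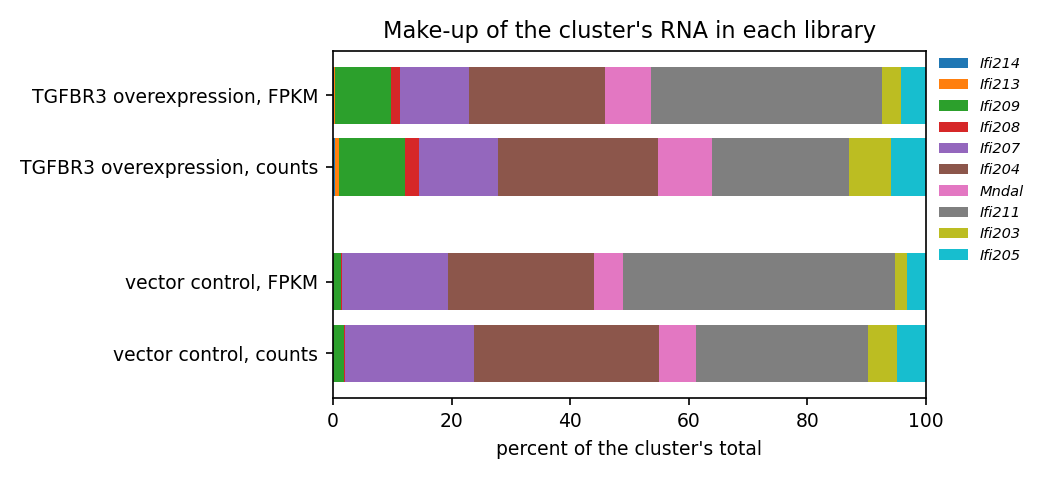
Percent of the cluster's summed counts and summed FPKM that came from each member, in the library labelled vector control (lower pair of bars) and TGFBR3 overexpression (upper pair). The segment of Ifi209 grows from 1.76% to 11.1% of counts, and that of Ifi207 shrinks from 21.8% to 13.3%.

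The ratios also differed along the chromosome. This grouping was noticed in the values and is a description. The first 4 members by position, Ifi214, Ifi213, Ifi209 and Ifi208, had 1.04 FPKM in all in the library labelled vector control and 45.47 FPKM in the other. Their summed share of counts was 45.3-fold higher (40.8 to 50.5). The other 6, from Ifi207 to Ifi205, had 67.31 and 357.87 FPKM, and their share of counts was 5.46-fold higher (5.37 to 5.55). A low count in the control library enters both the level and the ratio, so the low level and the high ratio of the first 4 are not separate measurements. Of all 21364 genes, 0.159% had a share of counts at least 30-fold higher, the 3-count floor applied, and those 4 members are among them.

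The other PYHIN genes measured at the locus, 3 in number, were also higher in the library labelled TGFBR3 overexpression. Ifi206, which adjoins Ifi214 and is no member, had 24.47 and 0.63 FPKM from 5069 and 179 counts, 38.1-fold with an interval that overlaps that of Ifi209. Ifi203-ps, a pseudogene between Ifi204 and Mndal, had 1.95 and 0.17 FPKM from 338 and 40 counts, 11.4-fold. Aim2, the inflammasome sensor, was close to absent, with 0.34 and 0.1 FPKM from 82 and 33 counts, and its ratio of 3.34-fold has an interval of 2.205 to 5.17. The levels of Ifi202b, Pyhin1, Pydc3, Pydc4, Pydc5, Ifi212 and Ifi215 were not analysed here, as none had a row under these symbols.

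The genes within 1 Mb on each side of the cluster were examined next. Of the 10 measured genes before the cluster, Ifi206 was the single gene at least 2-fold higher and none was 2-fold lower on the scale of (FPKM + 1). This says little, since 8 of the 10 were under 1 FPKM in both libraries and could not pass it. By the share of counts, Aim2 was at 3.34-fold and Slamf8 at 2.80-fold from 25 and 12 counts, and Gm2710 had 4 and 1 counts. Lower by this measure were Cadm3, a cell adhesion gene, at 0.426-fold from 51 and 161 counts, and Vsig8, with 0 and 12 counts. After the cluster, 4 genes were measured and none passed 2-fold in either direction on the scale of (FPKM + 1). Of these, 2 were under 1 FPKM in both libraries. The nearest of them, the olfactory receptor gene Olfr420, had 6 and 4 counts. Within the cluster, the pseudogene Gm18752 had 22 and 0 counts.

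**Figure D4:**
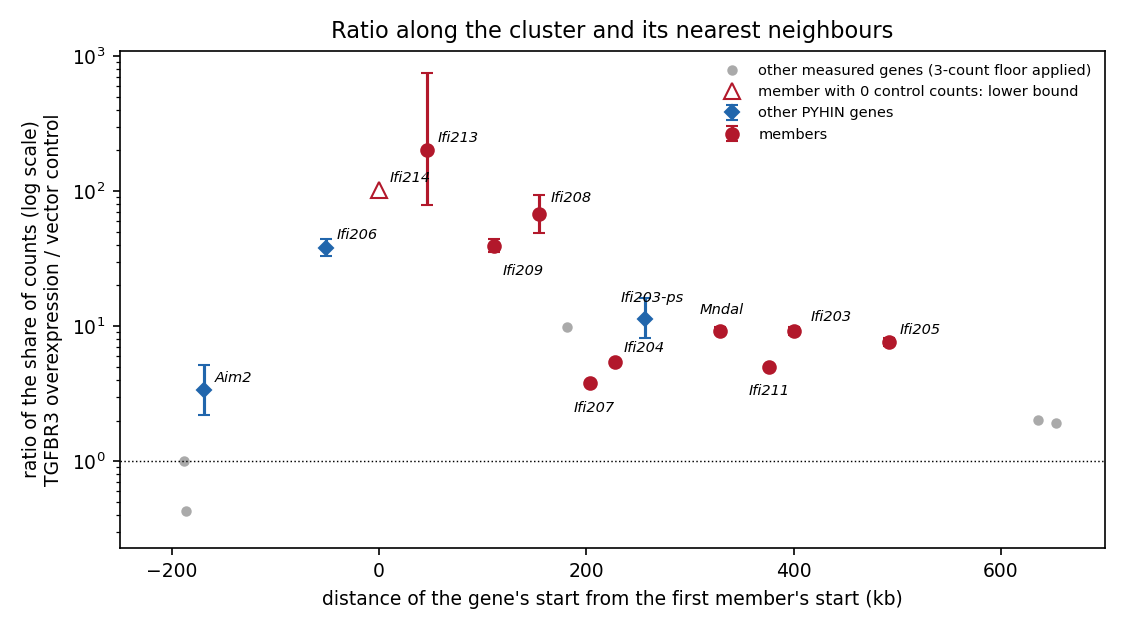
Ratio of the share of counts, TGFBR3 overexpression over vector control, on a log scale, against the distance in kb of each gene's start from the start of Ifi214. Members (circles) and other PYHIN genes (diamonds) have exact 95% counting intervals, and grey points are other measured genes. The triangle, labelled a lower bound, is Ifi214 at 102-fold by convention, with its 0 control counts set to 3. Its exact interval begins at 82.1-fold. Ifi206 and the first 4 members lie at 38.1-fold or more, the members from Ifi207 onwards between 3.81-fold and 9.28-fold.

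Reads of copies that resemble each other can be assigned to the wrong copy or dropped, so the sequence shared between members bears on each single value. It was measured as the percent of the 31-base words of a gene's transcripts that also occur in transcripts of other genes. Ifi207 shared the least, 14.8%, and Ifi211, the most abundant member, the most, 78.9%. The other 8 ranged from 20.7% in Ifi214 to 47.2% in Ifi209. The closest pairs by aligned coding sequence were Ifi208 and Ifi213 with 96.9% identity over 1758 bases and Ifi209 and Ifi214 with 96.5% over 657. Next were Ifi204 and Ifi211 with 96.4% over 1275 bases, and Ifi205 and Ifi211 with 94.7% over 1212. The longest coding sequences of Ifi209 and Ifi204 exceed these alignments, at 1260 and 1857 bases. Levels differed within such pairs to unequal degrees: in the library labelled TGFBR3 overexpression Ifi209 had 38.04 FPKM and Ifi214 0.41 FPKM, whereas Ifi211 and Ifi204 had 157 and 92.46 FPKM. How the counting treated reads that fit several copies is not given in the sources used here, and its part in the single values was not tested.

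Sharing was uneven along the cluster. Among the 5 genes from Ifi206 to Ifi208 and the 7 genes from Ifi207 to Ifi205, 31 of 35 pairs across the 2 stretches shared no word, and no gene shared more than 0.173% of its words with a gene of the other stretch. Within a stretch it was not general either: Ifi206, Ifi208 and Ifi213 shared at most 4 words with Ifi209 or Ifi214, which lie among them, and Ifi203 shared 0 words with Ifi205 and Ifi211. Counts were also summed over genes linked by at least 10% of either gene's words, which removes exchange inside a linked set. Ifi206, Ifi208 and Ifi213 together had 7714 and 224 counts, 46.3-fold (40.5 to 53.1). Ifi209 and Ifi214 had 9382 and 312 counts, 40.4-fold (36.1 to 45.4). Ifi204, Ifi205, Ifi211 and Mndal had 53716 and 12652 counts, 5.71-fold (5.60 to 5.82), and Ifi203 with Ifi203-ps had 6307 and 916 counts, 9.26-fold (8.63 to 9.93). Ifi207 linked to no other gene. Every gene in these sums was itself higher in the library labelled TGFBR3 overexpression, so the direction of the sums was fixed and says nothing further.

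**Figure D5:**
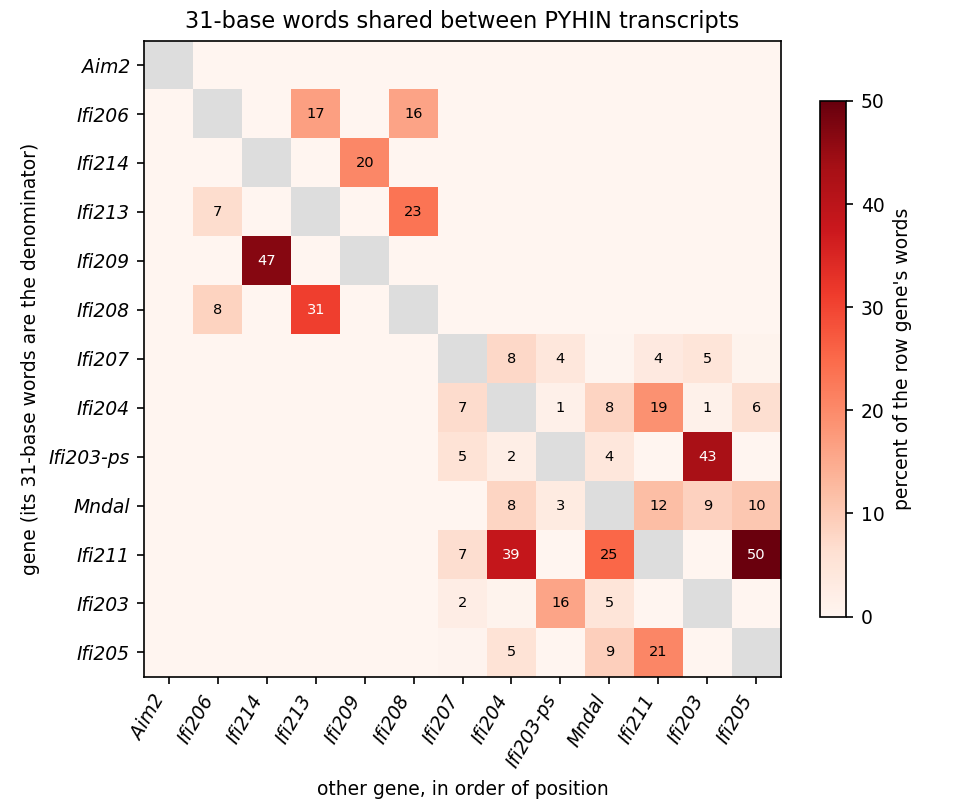
Percent of the 31-base words of each gene (rows) found in each other PYHIN gene (columns), in order of position; values of at least 1% are printed and the diagonal is grey. No value of 1% or more stands between the genes from Ifi206 to Ifi208 and those from Ifi207 to Ifi205, and within the former Ifi209 and Ifi214 share words with each other and hardly with the rest. The largest values are those for Ifi211 in Ifi205 (49.5%) and Ifi209 in Ifi214 (46.8%).

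The promoters fell into like sets too. Identity was 98.9% for Ifi208 and Ifi213, 99.3% for Ifi206 and Ifi208 and 97.6% for Ifi203 and the matching promoter of Mndal, over 281 to 289 aligned bases. Ifi205 and Ifi211 had 94.0%, but over 201 aligned bases only, and Ifi207 and Ifi211 had 88.4% over 294. Of the whole 300 bases, 63.0% were identical in Ifi205 and Ifi211 and 86.7% in Ifi207 and Ifi211. Levels of genes with nearly the same promoter still differed, as in Ifi206 with 24.47 FPKM and Ifi208 with 5.73 FPKM in the library labelled TGFBR3 overexpression.

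Genes of the pathways in which PYHIN proteins act were taken from lists, chosen with earlier results of these data known. In the cGAS-STING pathway, which turns cytosolic DNA into interferon transcription, 3 of 9 measured genes were at least 2-fold higher and none was 2-fold lower. Of all 21364 genes, 1.73% and 0.58% passed in these directions. At any size of change, 6 of the 9 were higher and 3 lower, among them Irf3 at 5.71 and 8.76 FPKM. Irf7, the transcription factor that amplifies type I interferon, had 278.68 and 20.98 FPKM, a log2 ratio of 3.67. Trex1, a DNA exonuclease, and Samhd1, a dNTP hydrolase, both had 1.32. The kinase gene Ikbke had 0.91. Sting1, which encodes the adaptor itself, had 15.6 and 16.13 FPKM, and Cgas, the DNA sensor that feeds it, 0.91 and 0.58 FPKM.

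In the inflammasome list, 1 of 8 measured genes was at least 2-fold higher, beside 1.73% of all genes. This was Casp4, the mouse caspase-11 gene for cytosolic lipopolysaccharide, with a log2 ratio of 1.70. Casp1 had 0.92 and Il18 0.80, and Gsdmd, the pore-forming protein, had 37.16 and 40.65 FPKM. Il1b had 7 and 0 counts.

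Among interferon receptors and their signalling genes, 3 of 15 were at least 2-fold higher and none 2-fold lower. Of all genes, 1.73% and 0.58% passed in these directions. Usp18, an inhibitor of receptor signalling, had 142.48 and 20 FPKM and a log2 ratio of 2.77. Stat2, which encodes a part of a complex that binds the ISRE, had 1.41, while Irf9, which encodes its DNA-binding partner, had 0.97, just under the threshold. The receptor genes Ifnar1 and Ifnar2 had log2 ratios of 0.03 and 0.22. Interferon transcripts were nearly absent: Ifnb1 had 9 and 3 counts, a ratio of 4.03-fold with a counting interval of 1.01 to 23.2, and Ifna4 had 0 counts in both libraries. Ifng and 7 other interferon genes on the list were not analysed here.

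Partners described for p204 and its relatives, among them cell cycle and differentiation factors, had 1 of 14 genes past 2-fold. Of all genes, 1.73% were at least 2-fold higher. Mdm2, the ubiquitin ligase of p53, had 75.56 and 29.94 FPKM, a log2 ratio of 1.31. Cdkn1a, a cell cycle inhibitor, had 0.71, Cebpa, an adipogenic transcription factor, −0.55, and Id2, an inhibitor of basic helix-loop-helix factors, 0.54. The median log2 ratios of these lists were 0.57 for the cGAS-STING pathway, 0.27 for the inflammasome, 0.24 for interferon signalling and 0.32 for the p204 partners, beside 0.06 over all genes.

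PYHIN genes are known for high expression in blood cells, so markers of other cell types were counted. All 9 leukocyte and macrophage markers had a row. Their summed level was 0.91 FPKM in the library labelled TGFBR3 overexpression and 0.54 FPKM in the other. Adgre1, Fcer1g and Tyrobp had 0 counts in both libraries, Ptprc, which encodes CD45, had 0 and 4 counts, and the highest of the list, Csf1r, had 0.46 and 0.39 FPKM. C1qb had 20 and 0 counts and C1qa 0 and 8. Sums of FPKM over different genes do not measure the share of cells, and the part of leukocytes in the cluster's level was not tested. Dendritic cell markers Itgax and Flt3 and the B cell marker Cd79a were at 6 counts or fewer, no T or natural killer cell marker was analysed here, and the muscle marker Myog had 0 and 8 counts. Endothelial markers summed to 2.1 and 2.02 FPKM, with members in both directions: Kdr had 262 and 65 counts and Cdh5 165 and 328. Adipocyte markers were lower in the library labelled TGFBR3 overexpression, with Adipoq at 5.69 and 13.01 FPKM and Cfd at 15.33 and 39.04 FPKM, and the part of this difference in the cluster's ratios was not tested.

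Outside the cluster, the 5 genes of at least 1 FPKM on average whose log2 ratio lay closest to that of the summed cluster were Acod1 with 2.54, Gvin1 with 2.52, Oas1g with 2.52, Gm4070 with 2.51 and Oas3 with 2.44. Oas1g and Oas3 belong to the oligoadenylate synthetases, which act against viral RNA, Gvin1 encodes a very large interferon-inducible GTPase, and Acod1 encodes the enzyme that makes itaconate. Likeness was measured as the difference in log2 ratio over 2 libraries, so it says nothing beyond these 2 values.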

How the data were processed

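Trimmed reads were mapped to mm10 and counted per gene by the authors. Their methods name STAR and FeatureCounts with the KC-Digital Stranded mRNA kit, whereas the submitters' processing notes list cutadapt 1.9, HISAT2 2.2.1, StringTie 2.1.6, DESeq2 and edgeR, and per the labels the libraries were poly(A)-selected with the second strand marked by dUTP and sequenced in pairs of 150 nt. The annotation release, the strand setting and the handling of reads that fit several genes are not given in the sources used here. The authors deposited, for each library, the raw counts per gene and FPKM values rounded to 2 decimals. Depth was 62321027 and 83779203 counts, at which 3 counts are 0.0481 and 0.0358 CPM.

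The measure was the log2 ratio of (FPKM + 1), a scale that understates the change of low genes, with a call at 2-fold. Beside it stands the ratio of the share of counts. A count of 3 was the floor. A ratio to a library with 0 counts was taken at it by convention, and one to a library with 1 to 3 counts is given with its counting interval. For counts of genes by fold, lower values were set to 3. No test was run, as 1 library per group gives no spread. The design had been written for FPKM before counts were known to be deposited, so counts served for intervals and alternatives. The sources used here do not say whether molecular identifiers were read. If not, PCR copies are counted as molecules, and either way intervals and floors cover counting error only.

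Members and gene lists were chosen with earlier results of these data known. Named genes were all members, other PYHIN genes with a row, Tgfbr3, up to 4 genes of each list with the largest absolute ratio and a mean FPKM of at least 1, named factors of the interferon and DNA-sensing pathways, the nearest neighbours, and the 5 genes closest in ratio. Cadm3, Gm18752, Gm2710, Ifnar1, Ifnar2, Il1b, Irf3, Pdgfra, Slamf8, Vsig8 and the low-count markers were named after their values were seen. Some genes covered by this rule are not reported here. Positions, exons and transcripts came from GENCODE M21 (mm10), which holds 26012 of the 26082 gene IDs; promoters came from RefSeq (GRCm38.p6). Coding identity is over aligned bases of the longest coding sequences. Calculations used Python 3.11.15, pandas 2.3.3, scipy 1.17.1 and biopython 1.88. Of these, the ratio of the share of counts, its interval and its 2-fold call were tested on simulated counts.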

Additional observations from a re-analysis of the deposited data

How the results depend on the processing

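The 110 recomputed member ratios all stayed above 0, and 29 of them stayed within the member's counting interval. Summing the rows of a symbol was among the alternatives and could change nothing, as each symbol had a single row. Its values are all among those 29. A change of pseudocount cannot turn the sign of a ratio either. The summed log2 ratio, 2.54, was 2.64 from CPM, 2.42 centred on the median gene, 2.61 at a common FPKM sum, 2.13 with the GC trend removed and 2.499 with the length trend removed. It was 2.70 without Ifi211, 2.46 over the 6 members under 30% shared words and 2.62 with the other PYHIN genes. The median over members, 2.44, was 3.01, 3.22 and 3.23 with pseudocounts of 0.1, 0.01 and none, and 2.95 from CPM. It was 2.32 after centring, 2.51 at a common sum, 2.02 without the GC trend, 2.36 without the length trend, 2.52 over members with a mean FPKM of at least 1 and 2.18 over those under 30% shared words. The share of counts without a pseudocount, an alternative chosen after seeing the data, gave 2.65 for the sum and 3.204 for the median. The count of members at least 2-fold higher was 9 of 10. It was 10 with pseudocounts of 0.1, 0.01 and none, from CPM and from the share of counts. With the GC or the length trend removed it was 8. By the share of counts with the 3-count floor, 16.8% of the 21364 genes were at least 2-fold higher. The share of all genes was not computed for the other pseudocounts, CPM or the trends. On the main scale, where 1.73% of all genes passed 2-fold, it was 5 of 6 under 30% shared words, by the smaller set. At 4-fold it was 7 of 10, where 0.36% of all genes passed. Centring subtracted 0.13, the median over 10626 genes of at least 1 FPKM in both libraries.

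No paired analysis was possible because each group holds 1 library, and leaving out a replicate was not possible either. Depth limits the control values of Ifi208, Ifi213 and Ifi214, at 41, 4 and 0 counts.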
